A study of Mus musculus with 6 samples.

Results

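The genes described here encode odorant-binding proteins, other lipocalins and major urinary proteins (Mups) of mouse nasal tissue. They were chosen by name: 10 symbols were looked up in the deposited table of 31319 genes, and 9 genes were found, namely Obp1a, Obp1b, Obp2a, Obp2b, Lcn3, Lcn4, Lcn11, Mup4 and Mup5. The remaining symbol, Lcn14, has no row of its own and is listed by RefSeq as a synonym of Obp2b. Polyadenylated RNA of the main olfactory epithelium, the odour-sensing lining of the nose, of C57BL/6 males, 5 months old, was sequenced. There were 3 libraries labelled miR-200b/a KD (microRNAs miR-200b and miR-200a knocked down) and 3 labelled NC, the controls. No source used here says how the knockdown was made, what the NC animals carried or whether tissue was pooled. Nothing in the labels ties a library to a mouse of its own. The p-values thus measure library-to-library spread, and that spread may be technical. A single comparison, KD against NC, follows from the groups. Values below are listed in the order KD-1, KD-2, KD-3 and then NC-1, NC-2, NC-3, with the groups parted by "against".

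Lipocalins are small secreted proteins whose barrel-shaped fold encloses a pocket for greasy small molecules. Odorant-binding proteins are lipocalins made by glands of the nose and released into the mucus, where they are thought to carry odorants. Mups are lipocalins best known for binding pheromones in the urine of male mice, where they come from the liver, and some Mup genes are active in glands of the head instead. Lcn3 and Lcn4 encode proteins first described in glands of the vomeronasal organ and the nasal septum.

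Total counts per library ran from 15704791 to 17618540. The labelled tissue's defining neuron marker was uneven. Raw counts of Omp, the marker of mature olfactory neurons, were 24302, 149 and 33430 against 69388, 66437 and 61926, so neuron RNA was nearly missing from KD-2. In NC-1 the 13 listed markers of Bowman's glands, the mucus glands of the olfactory lining, took 11.2% of the counts, against 1.28% to 2.56% in the other 5 libraries. Of that sum in NC-1, 83.7% came from Bpifb9b and Bpifb9a alone. The remaining 11 markers took 1.84% of the counts in NC-1, still the highest share, and 0.636% to 1.68% elsewhere. Values that rest on NC-1 or KD-2 are therefore also given without them. In tissue RNA, fewer cells of a type and less RNA per cell cannot be told apart.

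For 7 of the 9 genes most of the summed CPM came from a single control library, NC-1, and Lcn3 and Lcn4 were the exceptions. Together the 9 genes had 14510, 4179 and 401 counts against 383382, 2716 and 595. They took 2.37% of all counts in NC-1 (2.36 to 2.38 as an exact 95% interval that covers counting error) and 0.0825% in KD-1, the next highest. NC-2 (0.0154%) and NC-3 (0.00349%) lay below KD-1 and KD-2 (0.0266%), and KD-3 was lowest at 0.00232%. The groups overlapped for each of the 9 genes, while they did not overlap for 33.9% of 18444 tested genes. At a minimum of 10 counts, 8 of the 9 genes were present in all 6 libraries and Lcn4 in 3.

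**Figure D1:**
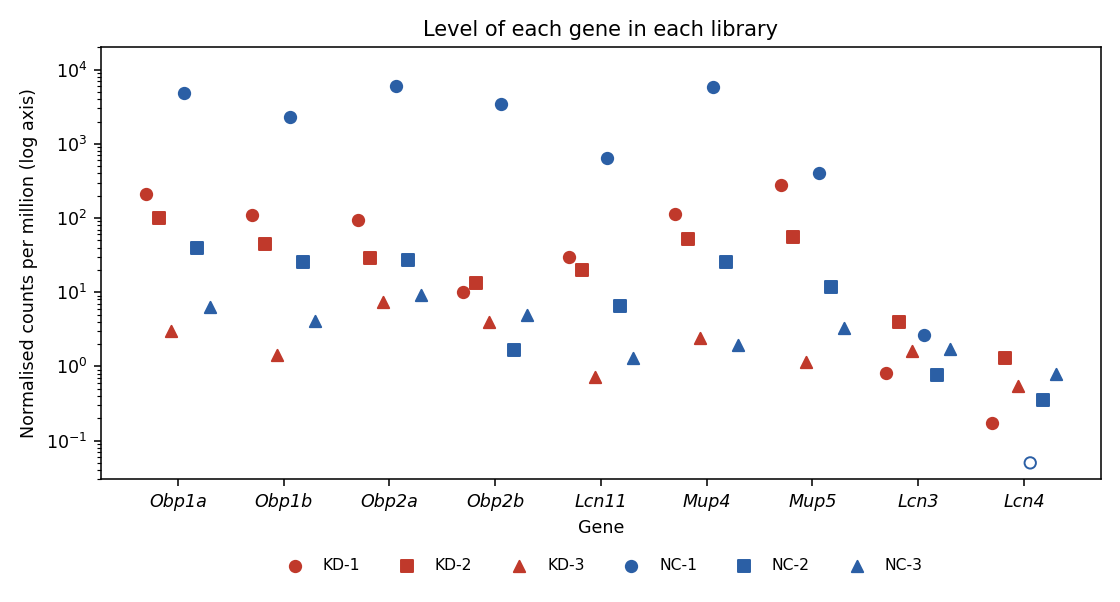
Levels of the 9 genes in CPM (counts per 1000000, log axis). Red symbols are single KD libraries, blue symbols single NC libraries, and the open circle stands for 0 counts. NC-1 lies 21.1 to 264 times above the next library for Obp1a, Obp1b, Obp2a, Obp2b, Lcn11 and Mup4, and among the other libraries for Lcn3.

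Obp1a and Obp1b encode odorant-binding proteins that can pair with each other, and they lie near each other on the X chromosome (build GRCm38, Obp1a at 78085505 to 78091374 on the minus strand, Obp1b at 78186777 to 78192292 on the plus strand). Obp1a (ENSMUSG00000067684) had 3613, 1308 and 54 counts against 79230, 775 and 111. In CPM (counts per 1000000, normalised by TMM) these were 211, 100.2 and 2.98 against 4887, 39.6 and 6.22. NC-1 stood 23.2-fold above KD-1, and the remaining 5 libraries spanned 70.9-fold among themselves. In NC-1, Obp1a ranked 11 among all genes by CPM; in KD-3 it ranked 14412. Obp1b (ENSMUSG00000067679) had 1874, 585 and 26 counts against 37365, 495 and 73, with the libraries in the same order as for Obp1a. Its NC-1 value was 21.1-fold above KD-1.

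Counts of Obp1b are less certain than those of Obp1a because of a near copy. The coding sequences of Obp1b and its neighbour Gm14743 are 99.8% identical, and 52.8% of the 150-base windows of the Obp1b transcript also occur in Gm14743, so reads could be split between them. Obp1a shares no such window with another gene, and its coding sequence is 71.0% identical to that of Obp1b. Gm14743 had 402, 120 and 1 counts against 6424, 54 and 4, again highest in NC-1.

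A close relative of Obp1a in the same cluster had no such excess in NC-1. Gm5938 (X, coding sequence 90.2% identical to Obp1a) had 65, 75 and 2 counts against 64, 11 and 5. NC-1 thus lay beside KD-1 and KD-2, although Obp1a was 23.2-fold higher in NC-1 than in KD-1. The windows around the start sites of these relatives are shown because their sequences are close while their counts in NC-1 are not. They run from 250 bases before to 50 bases after the RefSeq start (GRCm38.p6), with a TATA box hexamer, TATAAA, in capitals where present on the gene's strand. Obp1a is at chrX:78091325-78091624 (minus strand) and Gm5938 at chrX:78125217-78125516 (plus strand).
Obp1a: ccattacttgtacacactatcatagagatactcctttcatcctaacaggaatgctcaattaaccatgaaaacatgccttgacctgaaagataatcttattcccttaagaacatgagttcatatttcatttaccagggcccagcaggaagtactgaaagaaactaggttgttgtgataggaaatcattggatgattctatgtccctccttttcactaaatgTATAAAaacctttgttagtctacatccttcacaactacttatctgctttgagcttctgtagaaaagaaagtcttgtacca
Gm5938: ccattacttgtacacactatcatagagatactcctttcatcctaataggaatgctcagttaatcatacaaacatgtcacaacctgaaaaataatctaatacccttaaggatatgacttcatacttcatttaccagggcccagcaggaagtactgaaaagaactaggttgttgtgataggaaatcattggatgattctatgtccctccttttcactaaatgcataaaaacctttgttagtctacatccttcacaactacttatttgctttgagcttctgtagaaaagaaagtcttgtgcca
The windows differ at 21 of 300 positions without gaps. A single difference falls inside the hexamer, T221C, counted from 1 at the 5′ end of the window with the Obp1a base first. On the gene's strand TATAAA was found in 6 of the 8 genes whose window was in the RefSeq table, against 8.32% of 32851 windows of all genes (13.6% on either strand, and 6 of the 8). Lcn4 and Lcn11 had no match, and no window for Mup5 was used. The 6 are not independent, as the windows of Obp2a and Obp2b are 79.0% identical. Relative to the start, the hexamer began at -61 in Obp1b and Obp2a. In Obp1a, Obp2b, Lcn3 and Mup4 it began at -30 to -27. Of the other neighbours on X, 5430402E10Rik had no match, and its NC-1 value was 49.9 times that of the next library. Gm14743 had a match and stood at 16.9 times. Whether the hexamer bears on the counts was not tested. A match is a description of letters and not evidence of use.

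Obp2a and Obp2b, a second pair of odorant-binding protein genes, lie on chromosome 2 (Obp2a at 25700043 to 25703326, Obp2b at 25737009 to 25740097, both on the plus strand). Obp2a (ENSMUSG00000062061) had 1616, 380 and 132 counts against 98030, 539 and 162, or 94.4, 29.1 and 7.28 against 6046, 27.5 and 9.08 CPM. It ranked 6 among all genes in NC-1, the highest rank of the 9. Obp2b (ENSMUSG00000079539) had 171, 172 and 72 counts against 56410, 33 and 88. Its NC-1 level of 3479 CPM was 264-fold above that in KD-2, the next library, the widest such gap of the 9 genes. The coding sequences of the pair are 74.0% identical and share no 150-base window, so no read of that length would match both.

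The pair did not keep a fixed ratio. Obp2a counts per Obp2b count were 1.74 in NC-1, 1.83 in KD-3, 1.84 in NC-3 and 2.21 in KD-2, but 9.45 in KD-1 (95% exact interval 8.07 to 11.1) and 16.3 in NC-2 (11.5 to 24.0). In KD-1 and NC-2, Obp2a was thus present with little Obp2b, and these libraries belong to different groups. The start windows of the pair are shown for comparison, at chr2:25699824-25700123 for Obp2a and chr2:25736757-25737056 for Obp2b, plus strand, with TATAAA in capitals.
Obp2a: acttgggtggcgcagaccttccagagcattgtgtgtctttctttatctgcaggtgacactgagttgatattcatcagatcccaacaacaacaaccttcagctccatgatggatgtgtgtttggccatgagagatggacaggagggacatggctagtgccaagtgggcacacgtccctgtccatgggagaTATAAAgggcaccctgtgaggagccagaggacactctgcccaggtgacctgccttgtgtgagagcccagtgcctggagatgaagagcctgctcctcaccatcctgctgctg
Obp2b: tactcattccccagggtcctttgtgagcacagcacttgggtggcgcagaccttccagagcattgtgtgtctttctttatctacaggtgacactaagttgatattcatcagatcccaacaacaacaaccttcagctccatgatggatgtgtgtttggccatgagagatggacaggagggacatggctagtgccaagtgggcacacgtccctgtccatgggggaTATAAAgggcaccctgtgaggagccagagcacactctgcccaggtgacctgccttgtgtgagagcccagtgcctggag
These windows are 79.0% identical over their global alignment, with the RefSeq starts set at different distances from the hexamer.

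Lcn11, Lcn3 and Lcn4 lie on the same chromosome and followed different patterns. Lcn11 (ENSMUSG00000069080, 25777017 to 25780279), a lipocalin next to the Obp2 pair, had 510, 261 and 13 counts against 10522, 126 and 23. NC-1 was 21.8-fold above KD-1, and the order of the 6 libraries was that of Obp1a. Lcn3 (ENSMUSG00000026936, 25765569 to 25768099), which lies between Obp2b and Lcn11, had 14, 51 and 29 counts against 43, 15 and 31. KD-2 was highest for Lcn3, at 3.91 CPM, followed by NC-1 at 2.65. Lcn4 (ENSMUSG00000026919, 26667674 to 26671282) had 3, 17 and 10 counts against 0, 7 and 14, with KD-2 highest again. Its count of 0 in NC-1 allows up to 3 counts, or 0.185 CPM. NC-1, the library richest in Obp1a, was thus second for Lcn3 and lowest for Lcn4. Receptor genes of the vomeronasal organ (84 genes with rows) summed to 51 to 81 counts in each library.

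Mup4 and Mup5 stood apart from each other, although their coding sequences are 92.0% identical. Mup4 (ENSMUSG00000041333, chromosome 4, 59956804 to 59960710, minus strand) had 1945, 678 and 44 counts against 95243, 498 and 35. Its NC-1 level, 5874 CPM, was 51.7-fold above KD-1 and ranked 7 among all genes. Mup5 (ENSMUSG00000058523, chromosome 4, 61831319 to 61835233, minus strand) had 4764, 727 and 21 counts against 6539, 228 and 58. Here NC-1 exceeded KD-1 by 1.45-fold, while KD-1 exceeded KD-3 by 240-fold. Mup4 counts per Mup5 count were 14.6 in NC-1 and lay between 0.408 in KD-1 and 2.18 in NC-2 elsewhere. The transcripts share no 150-base window with each other. Mup6, beside Mup4, had 20 counts in NC-1 and 0 to 2 elsewhere, while 3 hepatocyte markers (Apoa1, Apoa2 and Serpina1a) summed to 6 to 20 counts in each library. These 3 defining liver markers were thus near 0, and the 3 other listed ones (Alb, Fgb and Cyp3a11) matched no row under those symbols.

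The knocked-down microRNAs have a seed, bases 2 to 8, that pairs with target transcripts, and the mature sequences are shown with the seed in capitals (RefSeq, GRCm38.p6).
miR-200a: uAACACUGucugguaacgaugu
miR-200b: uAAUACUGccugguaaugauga
A match to the miR-200a seed, CAGTGTT, was found in the 3′ untranslated regions of Mup4 and Mup5, at bases 18 to 24 of that region in both, and the surrounding bases were the same in the pair.
Mup4: gcctgagcctcCAGTGTTgagtggagact
Mup5: gcctgagcctcCAGTGTTgagtggagact
The other 7 genes had no match to either seed (the site for miR-200b is CAGTATT) in regions of 96 to 231 bases. Over all 19073 genes with an annotated region, whose median length was 1192 bases, 19.0% had a miR-200a match and 14.5% a miR-200b match. Between NC-1 and KD-1, Mup4 differed 51.7-fold and Mup5 1.45-fold. Without NC-1 the pair correlated at 0.952 (Pearson, log2(CPM + 1)). Whether the site bears on the counts was not tested. A match describes these letters and does not show pairing.

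Relative to their lengths, the order of the genes changed from library to library. In NC-1 the levels per kilobase of exon were 8127 CPM for Obp2a, 6455 for Obp1a, 6371 for Mup4, 4753 for Obp2b, 2892 for Obp1b, 995 for Lcn11, 436 for Mup5 and 3.88 for Lcn3. In KD-1 Mup5 led at 301 CPM per kilobase, ahead of Obp1a at 279, and Obp2b stood at 13.6. KD-2 and NC-2 were led by Obp1a, at 132 and 52.3 CPM per kilobase. KD-3 and NC-3 were led by Obp2a, at 9.78 and 12.2. Over the 6 libraries the mean levels per kilobase were 1392 CPM for Obp2a, 1155 for Obp1a, 1097 for Mup4, 800 for Obp2b, 521 for Obp1b, 181 for Lcn11 and 136 for Mup5. Differences between neighbours in that order were not tested. Each of these means rests largely on NC-1, which held 53.5% (Mup5) to 99.0% (Obp2b) of a gene's summed CPM, and their order is that of NC-1. Lcn3 and Lcn4 were lowest, at 2.80 and 0.683 CPM per kilobase.

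The make-up of the 9 transcripts does not depend on how the libraries are scaled against each other. Obp1a took 24.9%, 31.3% and 13.5% of the counts of the 9 genes against 20.7%, 28.5% and 18.7%. Obp2b took 14.7% in NC-1, 18.0% in KD-3 and 14.8% in NC-3, and 1.18% to 4.12% in the other libraries. Mup5 took 32.8% in KD-1 and 1.71% in NC-1 (95% exact intervals 32.1 to 33.6 and 1.67 to 1.75). Lcn3 took 7.23% in KD-3 and 5.21% in NC-3, where the sums were smallest, and 0.0112% in NC-1. The gene with the largest share was Obp2a in KD-3, NC-1 and NC-3, Obp1a in KD-2 and NC-2, and Mup5 in KD-1.

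**Figure D2:**
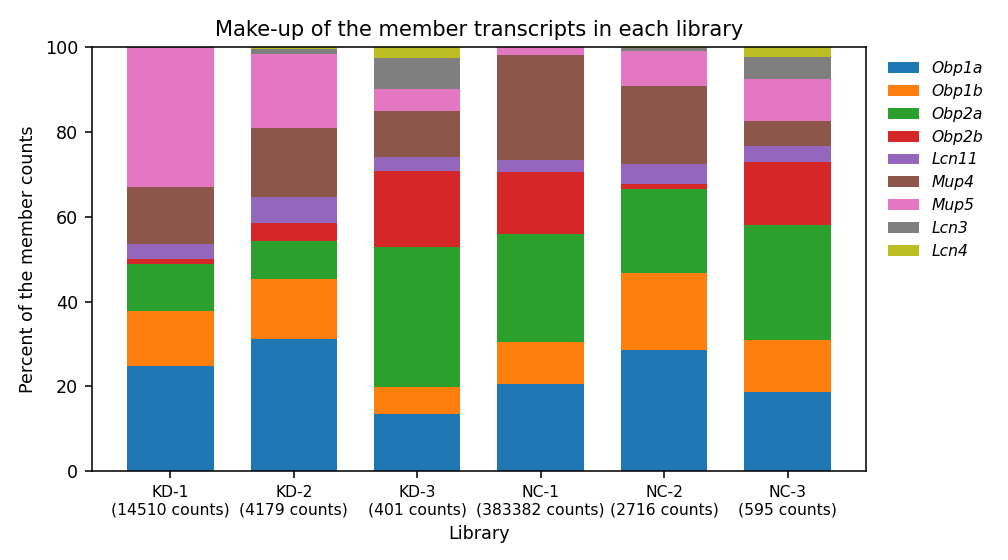
Percent of the summed raw counts of the 9 genes taken by each gene (stacked bars from 0 to 100) in each library, with the number of counts below the name. Mup5 is widest in KD-1 at 32.8%, and Obp2b is wide in KD-3, NC-1 and NC-3 and at most 4.12% elsewhere.

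Some pairs kept a narrow ratio over a wide range of levels. Obp1a counts per Obp1b count were 1.93, 2.24 and 2.08 against 2.12, 1.57 and 1.52, while the level of Obp1a itself ranged over 1642-fold. Lcn11 counts per Obp1a count lay between 0.133 in NC-1 and 0.241 in KD-3 (95% exact interval 0.121 to 0.447). Neither ratio was constant within counting error. The intervals of NC-1 (2.09 to 2.15) and NC-2 (1.40 to 1.76) were separate for Obp1a per Obp1b, as were those of NC-1 (0.130 to 0.136) and KD-2 (0.174 to 0.228) for Lcn11 per Obp1a. On log2(CPM + 1) the Pearson correlation of Obp1a over the 5 libraries without NC-1 was 0.997 with Obp1b, 0.994 with Lcn11, 0.987 with Mup4, 0.972 with Mup5 and 0.962 with Obp2a, against 0.53 with Obp2b and -0.04 with Lcn3. Lcn3 and Lcn4 correlated at 0.960 there. These are descriptions over 5 libraries that share a tissue and a preparation.

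**Figure D3:**
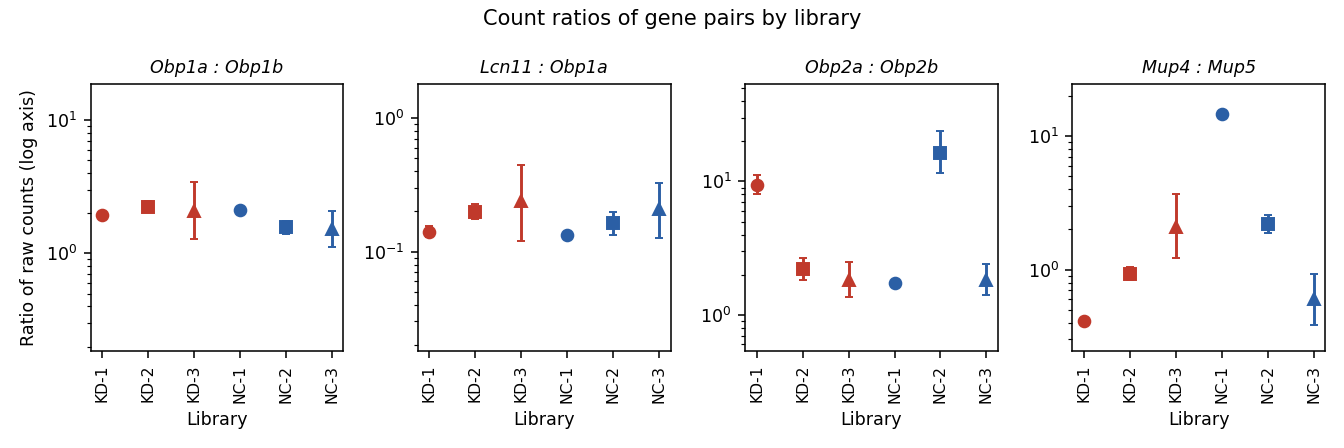
Ratio of raw counts (log axis) of 4 gene pairs. Red points are KD libraries, blue points NC libraries and bars exact 95% counting intervals; each panel spans the same number of log units. Obp1a per Obp1b stays between 1.52 and 2.24, while Obp2a per Obp2b is 9.45 in KD-1 and 16.3 in NC-2 and 1.74 to 2.21 elsewhere.

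Among the 8 tested genes 7 were highest in NC-1, against 30.2% of all tested genes. An excess of at least 10 times in NC-1 was rarer. Of 8 of the 9 genes that passed the filter on low counts, 6 had an NC-1 value at least 10 times that of every other library, against 0.0705% of all tested genes (13 of 18444). The other 7 of those 13 were Gm14744, 5430402E10Rik and Gm14743, which lie near Obp1a and Obp1b on X, BC051076, 2310003L06Rik, Pip, which encodes the secreted prolactin-induced protein, and Odam. Gm14744 had 3095, 1263 and 83 counts against 68439, 621 and 127, and 5430402E10Rik had 1300, 350 and 8 against 61357, 371 and 23. Of the 150-base windows of 5430402E10Rik, 17.3% also occur in Gm14744, so reads could be split between them. Pip stood at 183 CPM in NC-1 and at 2.53 or less elsewhere. Among tested genes, the same excess in another library was found for 2 genes in KD-1, 7 in KD-2, 0 in KD-3, 1 in NC-2 and 1 in NC-3, none of them among the 9. Genes that failed the filter were left out of these counts, so genes high in a single library can be missed. Mup6, for example, was not tested, and its 20 counts in NC-1 were 10.6 times the next library in CPM.

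The genes whose values followed Obp1a most closely over the 6 libraries, by Pearson correlation of log2(CPM + 1) among genes with a mean of at least 10 CPM, were Gm14744 (r = 0.998), 5430402E10Rik (0.995) and Gm14743 (0.993). The same 3 were among the 5 most similar genes of Obp1b, Lcn11 and Mup4, and BC051076 was among those of Obp2a and Mup4. Gm14750 (15, 5 and 0 counts against 978, 3 and 0) was among those of Obp2b. A high correlation does not mean a like range: Dph3, also among the 5 for Obp1a (0.993), had between 315 and 490 counts. The most similar gene was Miip for Mup5 (0.996; 307 to 454 counts), Psmc2 for Lcn3 (0.986; 1124 to 1501) and Eri3 for Lcn4 (0.998; 655 to 907), each of a similarly narrow range.

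Neighbouring genes were mixed. Within 200 kilobases of the 9 genes lay 41 other protein-coding genes, of which 28 had rows and 20 were tested. On X, 5430402E10Rik and Gm14743 shared the NC-1 excess and Gm5938 did not. On chromosome 2, NC-1 was at most 1.22 times the highest other library among the tested neighbours (Camsap1). Bmyc, beside Obp2a at 25706739 and not tested, had 7, 4 and 17 counts against 4, 4 and 8. Mamdc4, farther away at 25563115 to 25574845, had 66, 59 and 108 counts against 132, 140 and 121. Notch1, a cell fate receptor near Lcn4, had 698, 718 and 814 against 374, 626 and 612, with NC-1 lowest. Beside Lcn11, Gm13539 had 14 counts in NC-1, 2 in NC-2 and 0 elsewhere.

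In the comparison of KD with NC, none of the 8 tested genes passed edgeR's quasi-likelihood test at an adjusted p of 0.05, against 0.0% of 18444 genes. At an unadjusted p under 0.05 the count was 0 of 8, against 17.9% of all genes. Groups that did not overlap were found for 0 of 8, against 33.9%. A log2 fold change below 0 was fitted for 7 of 8, against 49.4%. The mean of Obp1a was 105 ± 104 CPM for KD and 1644 ± 2808 CPM for NC (SD, n = 3 per group), with a log2 fold change of -3.97 (SE 2.51, edgeR adjusted p = 0.38). The SD in NC exceeded the mean. Obp2b had the most negative fit, -7.01 (SE 2.91, edgeR adjusted p = 0.28), from 9.04 ± 4.67 CPM in KD and 1162 ± 2007 in NC. Fitted values were -5.54 for Obp2a, -5.14 for Mup4, -3.91 for Obp1b, -3.70 for Lcn11, -0.32 for Mup5 and 0.29 for Lcn3, with SE between 0.71 and 2.83 and adjusted p between 0.29 and 0.93. The median of the 8 was -3.94, against 0.01 over all tested genes.

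Without NC-1 the direction turned for 7 of the 8, and 0 of 8 were then below 0, against 48.6% of all genes. Obp1a then stood at 105 ± 104 CPM in KD (n = 3) and 22.9 ± 23.6 in NC (SD, n = 2), a log2 fold change of 2.19 (SE 1.66, edgeR adjusted p = 0.58). The values were 1.82 for Obp1b, 1.25 for Obp2a, 1.45 for Obp2b, 2.12 for Lcn11, 2.03 for Mup4 and 3.90 for Mup5 (SE 2.05, edgeR adjusted p = 0.49), and Lcn3 stayed above 0 at 0.74. The median of the same 8 was 1.92, against 0.02 over all genes, and 0 of 8 had an unadjusted p under 0.05, against 10.2% of 18916 genes. No direction for KD against NC can therefore be given for these genes from the 6 libraries. Among KD libraries alone, Obp1a differed 70.9-fold between KD-1 and KD-3.

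**Figure D4:**
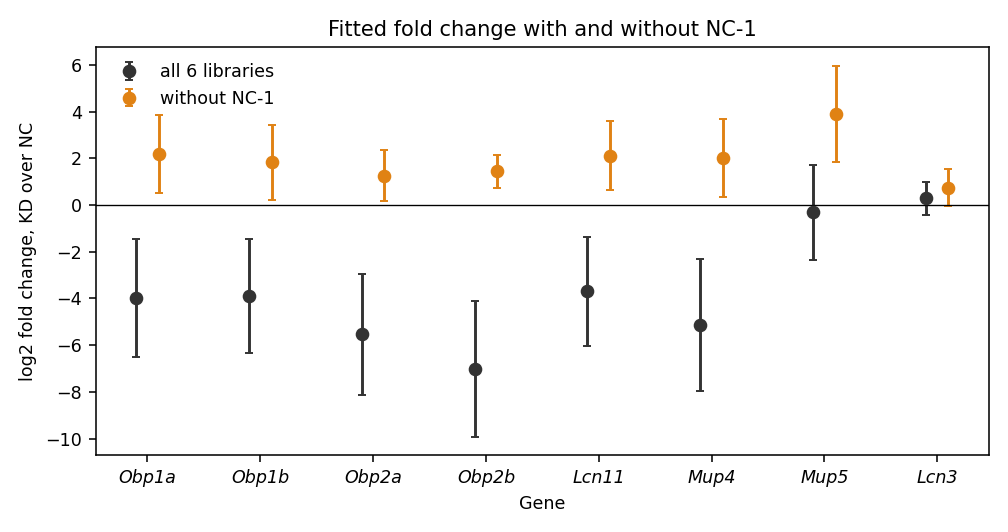
Fitted log2 fold change of KD over NC (edgeR) of the 8 tested genes with its standard error (bars), from all 6 libraries (black) and without NC-1 (orange). With all libraries 7 of the 8 values lie below 0, from -7.01 to -0.32, and without NC-1 all 8 lie above 0, from 0.74 to 3.90.

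The authors' deposited table gives log2 fold changes of -4.03 for Obp1a, -3.96 for Obp1b, -5.59 for Obp2a, -7.06 for Obp2b, -3.76 for Lcn11 and -5.19 for Mup4, each without a p-value. No p-value is given in the authors' deposited table for 78 of 31319 genes, and 33 of these have their highest count in NC-1. The authors' deposited table gives p = 0.86 for Mup5, 0.74 for Lcn3 and 0.53 for Lcn4. DESeq2 run on the same counts gave no p for 77 genes, each of them among the 78, the same 6 included. With low-count genes removed, DESeq2 called 1.89% of 18390 genes at an adjusted p of 0.05, 1.07% lower and 0.821% higher in KD, while limma-voom called 0.0% of 18444. DESeq2 called neither Lcn3 (adjusted p = 0.87) nor Mup5 (0.93). Without its filter on outlying counts, an alternative added after seeing the data, DESeq2 gave an adjusted p of 0.062 for Obp2b and 0.12 for Obp2a, and the other 6 were above these.

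Other lipocalins were measured in the same libraries, and none of the tested ones was highest in NC-1. Of 38 further family members listed by name, 14 had rows and 9 were tested, with 6 above 0 and 3 below, a median of 0.57 and 0 past the threshold. Lcn2, which binds bacterial iron carriers and is made by neutrophils and inflamed epithelium, ran the other way: 65120, 124620 and 61802 counts against 978, 34414 and 59866, with NC-1 lowest. Orm1, an acute phase lipocalin, was likewise lowest in NC-1, with 571, 2350 and 474 counts against 10, 229 and 1187. Apod, a lipid-binding lipocalin, was even, with 817 ± 64.8 CPM for KD and 794 ± 70.6 CPM for NC (SD, n = 3 per group). Ptgds, the lipocalin-type prostaglandin D synthase, had the smallest p of the list and 541, 108 and 828 counts against 1329, 1354 and 2224, lower in each KD library (log2 fold change -1.69, SE 0.602, edgeR adjusted p = 0.28).

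Levels of the other marker lists in NC-1 were mixed. Bpifb9b, a secreted protein of olfactory glands, had 10453, 248914 and 5535 counts against 1238948, 37660 and 24821, so it was also high in KD-2. Obp1a stood at 100.2 CPM in KD-2, below KD-1 (211) and above NC-2 (39.6), NC-3 (6.22) and KD-3 (2.98). Of the 13 Bowman's gland markers, 9 were highest in NC-1, against 30.2% of all tested genes. Muc5b (54938, 47166 and 48224 against 15410, 32654 and 28983) and Aqp5 were instead lowest there. The summed level of the 13 was 13121 to 30821 CPM in KD and 15661 to 111984 CPM in NC, and no marker was at 0 in any library. The serous gland list (13 of 14 with rows) summed to 8419 CPM in NC-1 and to 17619 to 50367 elsewhere, with 1 of its 13 genes at 0 in NC-1. Of that sum in NC-1, Bpifa1 held 6220 CPM and Ltf 1410 CPM. Its 11 tested genes were mixed, with 5 lowest and 2 highest in NC-1. Pip, at 183 CPM in NC-1, is on this list. The 5 plasma cell markers were each lowest in NC-1, summing to 1078 CPM there and to 3974 to 6931 elsewhere, and 9 of 10 markers of mature olfactory neurons were highest there. The 8 sustentacular markers, of the supporting cells, summed to 12227 CPM in NC-1 and 5070 to 11189 elsewhere, and the 7 respiratory markers to 350 CPM in NC-1 and 608 to 977 elsewhere. The part of these cell types in the values of the 9 genes was not tested.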

How the data were processed

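Per the labels' protocols, RNA came from Trizol extraction and poly(A) libraries from the NEBNext Ultra RNA kit. The submitters' processing notes list HTSeq 0.6.0, DESeq, DESeq2, TopHat2, Bowtie2 2.2.3 and HISAT2 2.1.0, with the build GRCm38 and no roles. No source used here gives strand use or annotation release. The authors deposited 1 table with raw counts per gene and library. Per the file headers, the authors added 1 column of mean normalised counts over the libraries (a signal, not used), their log2 fold change (KD over NC) and a p-value.

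The counts went into edgeR 4.0.16 under R 4.3.3: TMM factors, default low-count filter, quasi-likelihood test over 6 libraries without covariates, two-sided, Benjamini-Hochberg adjustment over 18444 genes, threshold 0.05. Standard errors were derived from the fold change and F. The script was tested on simulated counts. Alternatives were DESeq2 1.42.0, limma-voom (limma 3.58.1), RLE factors, no filter, a replicate block and left-out libraries. DESeq2 without its filter on outlying counts was chosen after seeing the data. Exact 95% intervals describe counting error, as PCR copies could not be marked.

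Positions, exon lengths and transcripts came from GENCODE M21 (GRCm38), which held 31251 of the gene IDs. Symbols of 25 rows that were blank or had turned into dates or numbers were restored by gene ID. Start windows and microRNAs came from RefSeq (GRCm38.p6). Of the 9 genes 8 matched the window table. The genes and lists were chosen with earlier results of these data known. Named were the 9 genes, their neighbours within 200 kilobases, up to 3 genes of each list by smallest p and by level, and the 5 most similar genes of each. Orm1, 2310003L06Rik, Pip and Odam, and the 10-fold limit for NC-1, were named after their values were seen.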

Additional observations from a re-analysis of the deposited data

How the results depend on the processing

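Of the 9 genes, 0 passed the threshold under any of the 13 alternatives run, though Lcn4 was not tested under each and DESeq2 gave no adjusted p for 6. Over all genes DESeq2 called 151 higher and 196 lower, and 154 and 196 without its filter on outlying counts. With KD-2 and NC-1 both left out, edgeR called 3 higher. Leaving out each library in turn, the log2 fold change ran from -5.02 to 2.19 for Obp1a, -5.10 to 1.82 for Obp1b, -6.82 to 1.25 for Obp2a, -7.62 to 1.45 for Obp2b, -0.47 to 0.74 for Lcn3, -4.44 to 2.12 for Lcn11, -6.21 to 2.03 for Mup4 and -2.32 to 3.90 for Mup5. The highest value came without NC-1 in each of the 8. With KD-2 and NC-1 both left out it was 2.25 for Obp1a, 1.94 for Obp1b, 1.50 for Obp2a, 1.09 for Obp2b, -0.02 for Lcn3, 2.00 for Lcn11, 2.11 for Mup4 and 4.25 for Mup5. Mup5 was 0.071 with limma-voom. Correlations of same-numbered deviations from the group means were 0.305, 0.101 and -0.257, and those of differently numbered ones ran from -0.355 to 0.349. With 3 libraries per group these cannot decide whether the replicate numbers pair the libraries. With the numbers as a replicate block, Mup5 was 0.072 and 0 genes were called. Sizes also fell: Obp1a was -1.31 and Obp2b -0.77 with that block, and -1.50 and -1.85 with limma-voom. Left out singly, KD-1, KD-2 and KD-3 turned the direction of 0, 2 and 1 of the 8 values, and NC-1, NC-2 and NC-3 that of 7, 1 and 0. The cause of these reversals was not tested. Per kilobase of exon, the share of Obp1a among the 9 was 27.1% in KD-1, 33.1% in KD-2 and 21.5% in NC-1. At a minimum of 30 counts Lcn3 was carried by 3 libraries and Lcn4 by 0, and at 3 counts Lcn4 by 5. Depth limits Lcn4, with 51 counts in all, to a description.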
